A study of Mus musculus with 6 samples.

Results

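The genes described here are those of the ATF4 response, an amino acid and stress program, taken as a list of 45 symbols. They cover its transcription factors, stress effectors, the enzymes of serine, one-carbon, asparagine, cysteine, proline, branched-chain and polyamine metabolism, and amino acid transporters. Of the 45 symbols, 42 were measured by a probe set that carries that symbol alone, out of 12393 genes measured in all. Mthfd1l, Pycr1 and Sms were not analysed here. The list was drawn up by symbol, but with earlier results of these data known, so its counts are not those of a list blind to the data. A gene with several probe sets was read from the one with the highest mean.

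ATF4 is a transcription factor whose messenger RNA is translated more efficiently when kinases phosphorylate the initiation factor eIF2, for example when amino acids run short or proteins misfold. It pairs with C/EBP proteins and binds composite elements in the promoters of genes that make, import and charge amino acids. In activated T cells, which grow and divide fast, this program supplies serine, one-carbon units, asparagine and large neutral amino acids. Because ATF4 is controlled largely at translation, its messenger RNA gives only part of its activity.

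CD4+CD25- T cells of mice were purified by cell sorting and stimulated with anti-CD3 and anti-CD28 fixed to the plate. A retrovirus was then added, and RNA was taken 5 days later from cultures kept in 10% serum at 7% CO2. WT-mock cells came from wild-type B6 mice and received the empty retrovirus. KO-mock cells came from B6 mice labelled miR-17-92f/f CD4-cre+, in which the floxed microRNA cluster is cut by Cre driven from the Cd4 promoter, and received the same empty retrovirus. KO-miR-17 cells had that genotype and received a retrovirus carrying miR-17. Each group had 2 arrays of biological replicates, numbered 1 and 2. The wild-type label names no Cre, so the presence of Cre and the loss of the cluster cannot be told apart. KO-mock against WT-mock addresses loss of the cluster, KO-miR-17 against KO-mock addresses return of 1 of its microRNAs, and KO-miR-17 against WT-mock differs in both genotype and insert.

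All values are log2 probe set intensities after the authors' RMA normalization, and a difference is between group means on that scale. Unless another fit is named, a gene passed where limma's p-value, fitted without the replicate number and adjusted over all 12393 genes, was under 0.05. The 6 arrays had medians of 5.71 to 5.76 and lower quartiles of 3.99 to 4.17; readings near the lower quartile may be background. The 6 genes of CD4 T cells read 8.96 to 12.23 over all arrays. All 6 were lower on average in KO-mock than in WT-mock, with a median difference of -0.22. Of them, 5 did not overlap (Cd3d, Cd3e, Cd3g, Cd4 and Thy1), where 24.8% of all genes were lower without overlap. Thy1 passed, where 2.79% of all genes passed lower. In KO-miR-17 against WT-mock the same 5 did not overlap, beside 24.4% of all genes, and the median was -0.24. Thy1 passed there too, beside 2.77% of all genes lower. The part of these 6 genes in the members' values was not tested. The 25 markers of B, CD8, natural killer, myeloid, dendritic, erythroid and other cells read 3.12 to 6.26, with array means of 4.25 to 4.49, and none of these 25 passed in any comparison. The RNA is from bulk cultures, so fewer cells of a type and less RNA per cell cannot be told apart. Spiked-in poly-A control transcripts read 0.57 lower on average in KO-mock than in WT-mock and 0.03 higher in KO-miR-17 than in KO-mock. Transcripts of the cluster itself were not analysed here, so the deletion and the vector's microRNA were not checked.

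The microRNAs at issue are shown because deletion removes all of them while the vector returns only the first. They lie on the plus strand of mouse chromosome 14 (RefSeq, GRCm38.p6), with miR-17-5p at chr14:115043684-115043706. Capitals mark the seed, bases 2 to 8, and letters run 5′ to 3′. miR-17-5p and miR-20a-5p share a seed, miR-19a-3p and miR-19b-3p share another, and miR-18a-5p and miR-92a-3p each have their own.
miR-17-5p: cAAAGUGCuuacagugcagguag
miR-20a-5p: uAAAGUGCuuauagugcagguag
miR-18a-5p: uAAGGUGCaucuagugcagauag
miR-19a-3p: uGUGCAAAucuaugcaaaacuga
miR-19b-3p: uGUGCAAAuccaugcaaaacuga
miR-92a-3p: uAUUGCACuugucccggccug

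The element that ATF4 and C/EBP proteins bind was searched as TGATGNAA on both strands in RefSeq promoter windows, from 250 bases before to 50 after each start site. It was present in 9 of 42 such windows, which belong to 35 of the listed genes, or 21.4%, and in 3.97% of all 32851 windows. The list names genes of the ATF4 response, and the motif was chosen after values were seen. The 2 shares are therefore a description and no test. The 9 were Chac1, Trib3, Slc7a11, Asns, Nupr1, Herpud1, Slc1a4, Vldlr and Got1. Of them, 4 are printed below as 60-base windows on the gene's strand (GRCm38.p6), with each match in capitals: the ATF4 target genes Chac1, Nupr1 and Asns, which read higher in KO-miR-17 than in KO-mock cells, and Slc7a11, which holds 2 matches. Cth, which had the largest difference, had no entry. The Chac1 window is chr2:119351023-119351082 with the match at position -193 from the start site. The Nupr1 window is chr7:126625547-126625606, minus strand, with the match at -110. The Asns window is chr6:7693210-7693269, minus strand, with the match at -23. The Slc7a11 window is chr3:50443646-50443705, minus strand, with matches at -66 and -47.
Chac1: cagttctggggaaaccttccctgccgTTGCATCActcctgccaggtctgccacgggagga
Nupr1: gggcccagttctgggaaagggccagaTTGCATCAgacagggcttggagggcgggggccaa
Asns: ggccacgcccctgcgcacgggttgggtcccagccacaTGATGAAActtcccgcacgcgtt
Slc7a11: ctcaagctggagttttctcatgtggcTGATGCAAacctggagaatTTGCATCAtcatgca
A match describes these letters and does not show binding. The genes that hold it did not share 1 direction against WT-mock. Vldlr was lower in both KO groups than in WT-mock, and Slc7a11 read lower in KO-miR-17 than in WT-mock under both replicate numbers. Between KO-miR-17 and KO-mock, Chac1, Trib3, Asns, Nupr1, Herpud1, Slc1a4 and Got1 read higher under both numbers, beside 31.2% of all genes. There Vldlr (0.04 and -0.11) and Slc7a11 (0.05 and -0.33) changed sign between the numbers. No test was made of these directions.

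Between KO-mock and WT-mock, 3 of the 42 genes passed the test, all higher: Mthfd1, Glud1 and Srm. Over all genes 6.54% passed, 3.74% higher and 2.79% lower, so 3 of 42 is close to the background. Between KO-miR-17 and KO-mock none of the 42 passed in limma fitted without the replicate number, and none of the 12393 genes did (0.0%). At an unadjusted p under 0.05 that comparison held 3 members, Cth, Bcat1 and Bcat2, all higher, and 487 genes in all, 3.93%. Between KO-miR-17 and WT-mock, 6 of the 42 passed, all higher: Phgdh, Shmt2, Mthfd1, Aldh18a1, Bcat1 and Srm. Over all genes 6.8% passed there, 4.03% higher and 2.77% lower. Any 2 of these comparisons share the arrays of 1 group, so their values are given side by side and not as separate evidence.

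The median member difference was 0.11 for KO-mock against WT-mock, 0.15 for KO-miR-17 against KO-mock and 0.32 for KO-miR-17 against WT-mock. Over all genes the medians were -0.03, 0.00 and -0.03. Between KO-mock and WT-mock the groups did not overlap for 12 members that read higher and 4 that read lower (Bcat2, Cebpb, Ppp1r15a and Vldlr), beside 25.1% and 24.8% of all genes. Between KO-miR-17 and WT-mock, 22 members read higher without overlap and 4 lower (Cebpb, Ppp1r15a, Sesn2 and Vldlr), beside 25.9% and 24.4% of all genes. Between KO-miR-17 and KO-mock these were 6 and 2 members, beside 15.0% and 13.9%. There 34 of 42 members lay above 0, beside 51.4% of all genes. With the replicate numbers taken apart, 26 of 42 members read higher in KO-miR-17 than in KO-mock under both numbers and 3 read lower under both (Glud1, Odc1 and Sesn2), beside 31.2% and 28.0% of all genes. On the sets used, the difference reached 0.25 under both numbers in 10 members, all higher. They were Asns, Atf5, Bcat1, Chac1, Cth, Eif4ebp1, Herpud1, Nupr1, Slc7a5 and Trib3. That size was reached upward by 2.48% of all genes. No test was made of these counts.

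**Figure D1:**
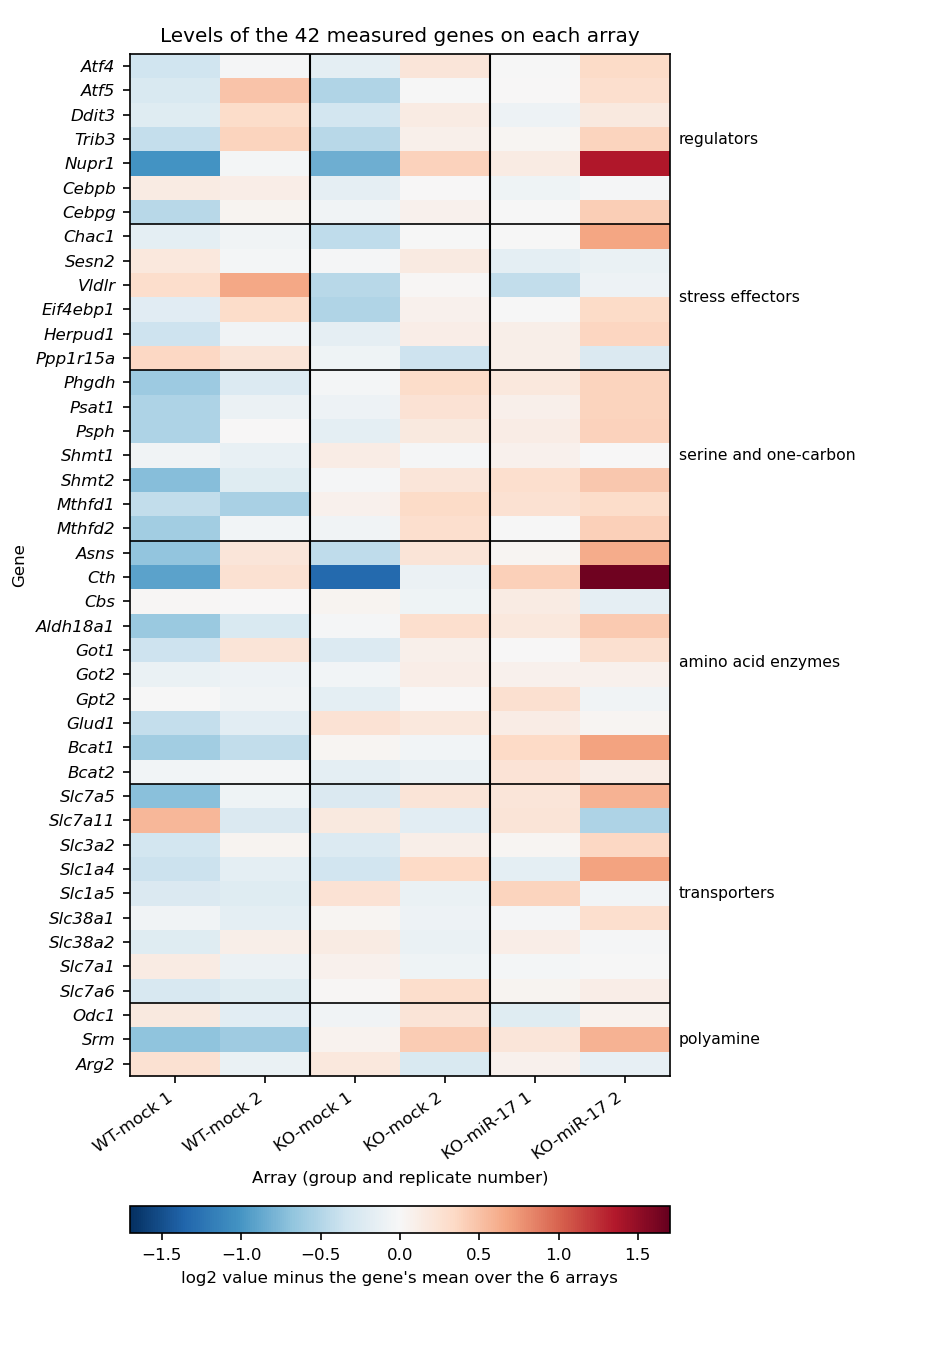
Each row is 1 of the 42 genes, grouped by role, and each column 1 of the 6 arrays; colour gives the log2 intensity minus that gene's mean over the 6 arrays. Array 2 was higher than array 1 in all 3 groups for 25 of the 42 genes, and the serine and one-carbon rows were higher in the KO columns than in the WT-mock columns of the same number.

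Most of this program read higher on the arrays numbered 2. Array 2 read higher than array 1 in all 3 groups for 25 of 42 members, beside 25.6% of all genes. It read lower in all 3 for 5 members (Arg2, Cbs, Ppp1r15a, Shmt1 and Slc7a11), beside 27.6% of all genes. The median member difference, array 2 minus array 1, was 0.26 in WT-mock, 0.28 in KO-mock and 0.27 in KO-miR-17, against all-gene medians of -0.02, -0.00 and -0.01. The poly-A controls went the other way, by -0.30, -0.38 and -0.44, and the hybridization controls by -0.35, -0.24 and -0.43. What sets the numbers apart is not given in the labels, and the part of the controls' shift in the members' values was not tested. Members on which the results turn are therefore given on every array.

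Among the 7 regulators, the factor at the head of the program included, none passed in limma fitted without the replicate number in any comparison. Atf4 read 9.99 and 10.30 in WT-mock, 10.16 and 10.53 in KO-mock, and 10.32 and 10.64 in KO-miR-17. The KO-miR-17 arrays lay above both WT-mock arrays, while the KO-mock arrays overlapped both other groups. KO-miR-17 minus WT-mock was 0.34 (SE 0.17, limma adjusted p = 0.288). KO-miR-17 minus KO-mock was 0.14 on this set, and 0.08 and -0.30 on the other 2 sets of Atf4, the last of them at background level. Nupr1, a small chromatin-associated stress protein, read 4.83 and 5.80 in WT-mock, 5.01 and 6.24 in KO-mock, and 5.98 and 7.20 in KO-miR-17. KO-miR-17 was the highest group under each number, by 0.98 and 0.96 over KO-mock, but array 1 of KO-miR-17 was below array 2 of KO-mock. That mean difference of 0.97 (SE 0.52, limma adjusted p = 0.9995) ranked 7 of 12393 upward and did not pass in limma fitted without the replicate number. It ranged from 0.35 without KO-mock 1 to 1.58 without KO-mock 2. Cebpg, a C/EBP family partner of ATF4, read 7.40 and 7.92 in WT-mock, 7.80 and 7.93 in KO-mock, and 7.85 and 8.29 in KO-miR-17, with overlap between each pair of groups. Trib3, a pseudokinase that ATF4 induces and that restrains it, read 7.05 and 7.84 in WT-mock, 6.98 and 7.54 in KO-mock, and 7.48 and 7.83 in KO-miR-17. It was lower in KO-mock than in WT-mock and higher in KO-miR-17 than in KO-mock under each number, while WT-mock and KO-miR-17 overlapped. Atf5, Ddit3 and Cebpb, the other 3 regulators, all had negative differences between KO-mock and WT-mock under both numbers, from -0.50 for Atf5 to -0.11 for Cebpb and Ddit3. Between KO-miR-17 and KO-mock the group median was 0.20, with 6 of 7 regulators higher under both numbers.

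The 6 stress effectors did not move as one group. Vldlr, a lipoprotein receptor, read 6.72 and 7.09 in WT-mock, 5.96 and 6.45 in KO-mock, and 6.01 and 6.34 in KO-miR-17. Both KO groups lay below WT-mock without overlap, with differences of -0.70 (SE 0.22, limma adjusted p = 0.102) and -0.73 (adjusted p = 0.0889), which did not pass. Ppp1r15a, which directs a phosphatase to eIF2 and so ends the response, read 7.89 and 7.76 in WT-mock, 7.47 and 7.19 in KO-mock, and 7.64 and 7.30 in KO-miR-17. It too lay lower in both KO groups without overlap, with differences of -0.50 (SE 0.16, limma adjusted p = 0.114) and -0.36 (adjusted p = 0.23). Herpud1, an endoplasmic reticulum degradation factor, read 7.999 and 8.30 in WT-mock, 8.20 and 8.47 in KO-mock, and 8.46 and 8.72 in KO-miR-17. Both KO-miR-17 arrays were above both WT-mock arrays. The other set of Herpud1 gave 0.10 for KO-miR-17 minus KO-mock and 0.07 for KO-miR-17 minus WT-mock. The set used gave 0.26 and 0.44. Chac1, which degrades glutathione, read 5.77 and 5.87 in WT-mock, 5.50 and 5.93 in KO-mock, and 5.93 and 6.61 in KO-miR-17. KO-miR-17 exceeded KO-mock by 0.43 and 0.68 under the separate numbers, a mean of 0.55 (SE 0.24, limma adjusted p = 0.9995). Eif4ebp1, an inhibitor of cap-dependent translation, was higher in KO-miR-17 than in KO-mock by 0.50 and 0.25 under the separate numbers. The stress sensor Sesn2 was lower by 0.15 and 0.27 on the set used, but its other set was higher by 0.24 on average, so its direction turns with the set.

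**Figure D2:**
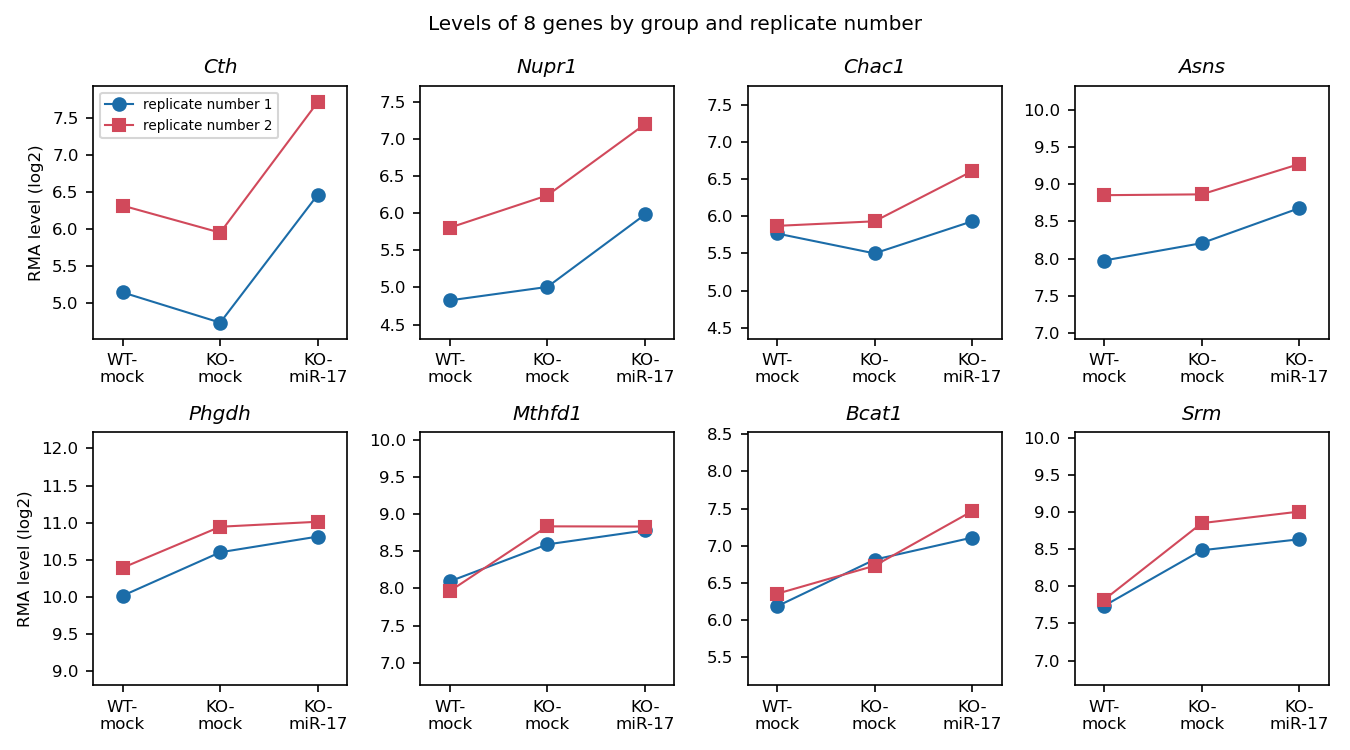
RMA level (log2, vertical axis) of 8 genes on each of the 6 arrays; blue circles are replicate number 1, red squares number 2, and a line joins the arrays of 1 number. Cth in KO-miR-17 (6.47 and 7.71) lay above both other groups, while Mthfd1 and Srm were higher in both KO groups than in WT-mock.

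The enzymes of serine and one-carbon metabolism were the group that differed most evenly between genotypes: all 7 read higher in KO-mock than in WT-mock under both numbers, with a median of 0.43, beside 32.7% of all genes. Mthfd1, the cytosolic enzyme that interconverts folate one-carbon units, read 8.09 and 7.96 in WT-mock, 8.59 and 8.84 in KO-mock, and 8.78 and 8.83 in KO-miR-17. Both KO groups lay above WT-mock without overlap. It rose by 0.69 in KO-mock (SE 0.12, 95% interval 0.42 to 0.96, limma adjusted p = 0.0209) and by 0.78 in KO-miR-17 (adjusted p = 0.0151). Phgdh, which commits glycolytic carbon to serine, read 10.02 and 10.39 in WT-mock, 10.60 and 10.95 in KO-mock, and 10.81 and 11.01 in KO-miR-17. Its KO-mock difference of 0.57 did not pass (SE 0.16, limma adjusted p = 0.077), and its KO-miR-17 difference of 0.71 did (adjusted p = 0.0401). Shmt2, which splits serine into glycine and a one-carbon unit in mitochondria, read 8.19 and 8.70 in WT-mock, 8.90 and 9.12 in KO-mock, and 9.20 and 9.37 in KO-miR-17. The 3 groups did not overlap, and its difference from WT-mock was 0.56 in KO-mock (SE 0.17, limma adjusted p = 0.102) and 0.84 in KO-miR-17 (adjusted p = 0.033). Passing against WT-mock in KO-miR-17 and not in KO-mock does not show that the KO groups differed, since KO-miR-17 minus KO-mock was 0.14 for Phgdh (95% interval -0.22 to 0.50) and 0.27 for Shmt2 (-0.13 to 0.67).

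Psat1, the next enzyme of serine synthesis, read 9.46 and 9.90 in WT-mock, 9.90 and 10.24 in KO-mock, and 10.08 and 10.37 in KO-miR-17. KO-mock array 1 stood just above WT-mock array 2, and no difference passed. Psph, which completes the pathway, and Mthfd2, a mitochondrial folate enzyme, were 0.52 and 0.51 higher in KO-miR-17 than in WT-mock, without overlap. Shmt1, the cytosolic counterpart of Shmt2, had 4 probe sets that disagreed. The set used, the brightest by a small margin, read 7.37 and 7.30 in WT-mock, 7.56 and 7.40 in KO-mock, and 7.499 and 7.44 in KO-miR-17. The next brightest set read 6.87 and 6.71, then 7.68 and 7.80, then 7.56 and 7.82. KO-mock minus WT-mock was 0.15 on the set used and 0.84 to 0.99 on the other 3, and those 2 groups did not overlap on any of the 4. With the mean of the 4 sets Shmt1 rose in KO-mock by 0.73 (SE 0.11, limma adjusted p = 0.0206), so its call turns with the choice of set. Between KO-miR-17 and KO-mock the group median was 0.14, and no gene of this group reached 0.25 under both numbers.

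Cth, the enzyme that releases cysteine in the transsulfuration pathway, showed the largest difference of any gene between KO-miR-17 and KO-mock. It read 5.15 and 6.32 in WT-mock, 4.74 and 5.95 in KO-mock, and 6.47 and 7.71 in KO-miR-17. Both KO-miR-17 arrays were above all 4 other arrays, although array 2 exceeded array 1 by more than 1 unit in each group. Under the separate numbers KO-miR-17 minus KO-mock was 1.72 and 1.76, and the mean of 1.74, a 3.35-fold difference, ranked 1 of 12393 upward. It did not pass in limma fitted without the replicate number (SE 0.55, 95% interval 0.47 to 3.02, unadjusted p = 0.0138, limma adjusted p = 0.9995). Leaving out 1 array, it ranged from 1.12 without KO-miR-17 2 to 2.37 without KO-miR-17 1. KO-mock minus WT-mock was -0.41 and -0.36 under the separate numbers. Cbs, the enzyme before Cth, read 4.54 to 4.83 on all 6 arrays.

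**Figure D3:**
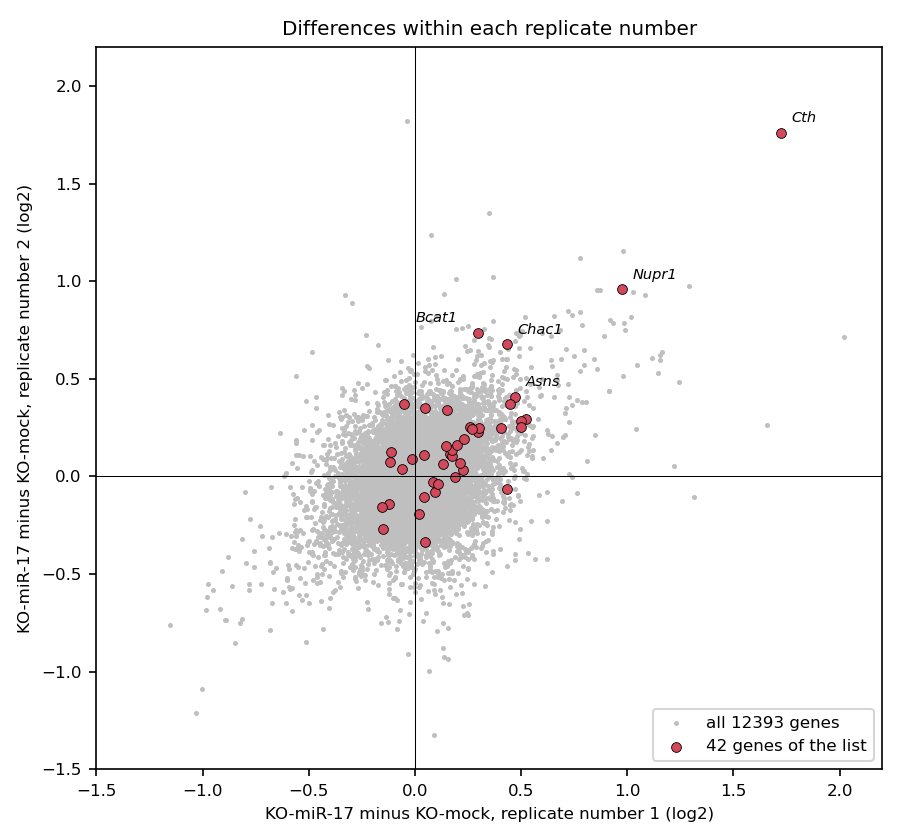
Each point is 1 gene, with KO-miR-17 minus KO-mock under replicate number 1 on the horizontal axis and under number 2 on the vertical axis (log2); grey points are all 12393 genes and red points the 42 of the list. Cth (1.72 and 1.76) and Nupr1 (0.98 and 0.96) stand at the upper right, and 26 red points lie in the upper right quadrant.

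Bcat1, the cytosolic branched-chain transaminase, read 6.18 and 6.35 in WT-mock, 6.81 and 6.73 in KO-mock, and 7.11 and 7.47 in KO-miR-17. The 3 groups were ordered without overlap. KO-miR-17 rose by 1.02 over WT-mock (SE 0.16, 95% interval 0.66 to 1.38, limma adjusted p = 0.0153), while the steps of 0.50 to KO-mock (adjusted p = 0.103) and 0.52 from KO-mock to KO-miR-17 (adjusted p = 0.9995) did not pass. Bcat2, the mitochondrial form, was higher in KO-miR-17 than in KO-mock by 0.40 and 0.248 under the separate numbers, without overlap, just short of 0.25. Aldh18a1, which starts proline synthesis from glutamate, read 8.92 and 9.30 in WT-mock, 9.54 and 9.85 in KO-mock, and 9.74 and 10.01 in KO-miR-17. All 4 KO arrays were above both WT-mock arrays, and the KO-miR-17 difference of 0.76 passed (SE 0.16, limma adjusted p = 0.0363) where the KO-mock difference of 0.58 did not (adjusted p = 0.0797). Glud1, which turns glutamate into 2-oxoglutarate, read 9.04 and 9.27 in WT-mock, 9.70 and 9.63 in KO-mock, and 9.57 and 9.48 in KO-miR-17. It rose by 0.51 in KO-mock (SE 0.10, 95% interval 0.27 to 0.75, limma adjusted p = 0.032). It was the one enzyme here that was lower in KO-miR-17 than in KO-mock without overlap, by 0.13, and its difference of 0.38 from WT-mock did not pass (adjusted p = 0.076).

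Asns, asparagine synthetase, read 7.97 and 8.85 in WT-mock, 8.21 and 8.86 in KO-mock, and 8.68 and 9.27 in KO-miR-17. KO-miR-17 was higher than KO-mock by 0.47 and 0.41 under the separate numbers, yet the replicate arrays of each group stood further apart than that and all groups overlapped (mean 0.44, SE 0.33, limma adjusted p = 0.9995). On the sets used, the transaminases Got1, Got2 and Gpt2 differed by at most 0.21 in size between any 2 groups. The other 2 sets of Gpt2, dimmer than the one used, read 0.56 and 1.11 higher in KO-miR-17 than in KO-mock, where the set used gave 0.18. Over the 10 measured enzymes of this group, 6 were higher in KO-miR-17 than in KO-mock under both numbers and 3 reached 0.25 under both.

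None of the 9 amino acid transporters passed in limma fitted without the replicate number in any comparison. Slc7a5, the light chain that imports large neutral amino acids, read 8.28 and 8.91 in WT-mock, 8.74 and 9.21 in KO-mock, and 9.19 and 9.58 in KO-miR-17. It increased in that order under each number, and KO-miR-17 stood above WT-mock without overlap by 0.79 (SE 0.24, limma adjusted p = 0.0964). Its heavy chain Slc3a2 was 0.32 higher in KO-miR-17 than in WT-mock, with overlap. Slc7a6, the y+L light chain, read 7.26 and 7.33 in WT-mock, 7.56 and 7.84 in KO-mock, and 7.58 and 7.65 in KO-miR-17. Both KO groups were above WT-mock, by 0.40 (SE 0.13, limma adjusted p = 0.119) and 0.32 (adjusted p = 0.199). Slc1a5, a glutamine carrier, read 8.10 and 8.14 in WT-mock, 8.60 and 8.24 in KO-mock, and 8.73 and 8.30 in KO-miR-17, so its KO arrays were above WT-mock and array 1 was the higher of each KO group. The cystine carrier Slc7a11 read 5.14 to 6.22 and was lower in KO-miR-17 than in WT-mock by 0.34 and 0.28 under the separate numbers. Slc38a1, Slc38a2 and Slc1a4, carriers of small neutral amino acids, overlapped between KO-mock and WT-mock on the sets used. The other sets of Slc1a4 read 0.39 higher in KO-mock than in WT-mock without overlap, where the set used gave 0.28. Slc7a1 read 3.67 to 3.90, below the lower quartile of the arrays, so no level can be read for it.

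Srm, spermidine synthase, had the largest difference of the list between KO-mock and WT-mock. It read 7.74 and 7.82 in WT-mock, 8.48 and 8.85 in KO-mock, and 8.63 and 9.01 in KO-miR-17. All 4 KO arrays lay above both WT-mock arrays. It rose by 0.89 in KO-mock (SE 0.16, 95% interval 0.51 to 1.27, limma adjusted p = 0.0255) and by 1.04 in KO-miR-17 (adjusted p = 0.0165). Odc1, the enzyme before it, read 10.03 and 9.69 in WT-mock, 9.81 and 10.08 in KO-mock, and 9.66 and 9.93 in KO-miR-17, and both KO groups overlapped WT-mock, below it under number 1 and above it under number 2. Arg2, the mitochondrial arginase, read 4.42 and 4.05 in WT-mock, 4.34 and 3.90 in KO-mock, and 4.23 and 4.02 in KO-miR-17, near the arrays' lower quartile.

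**Figure D4:**
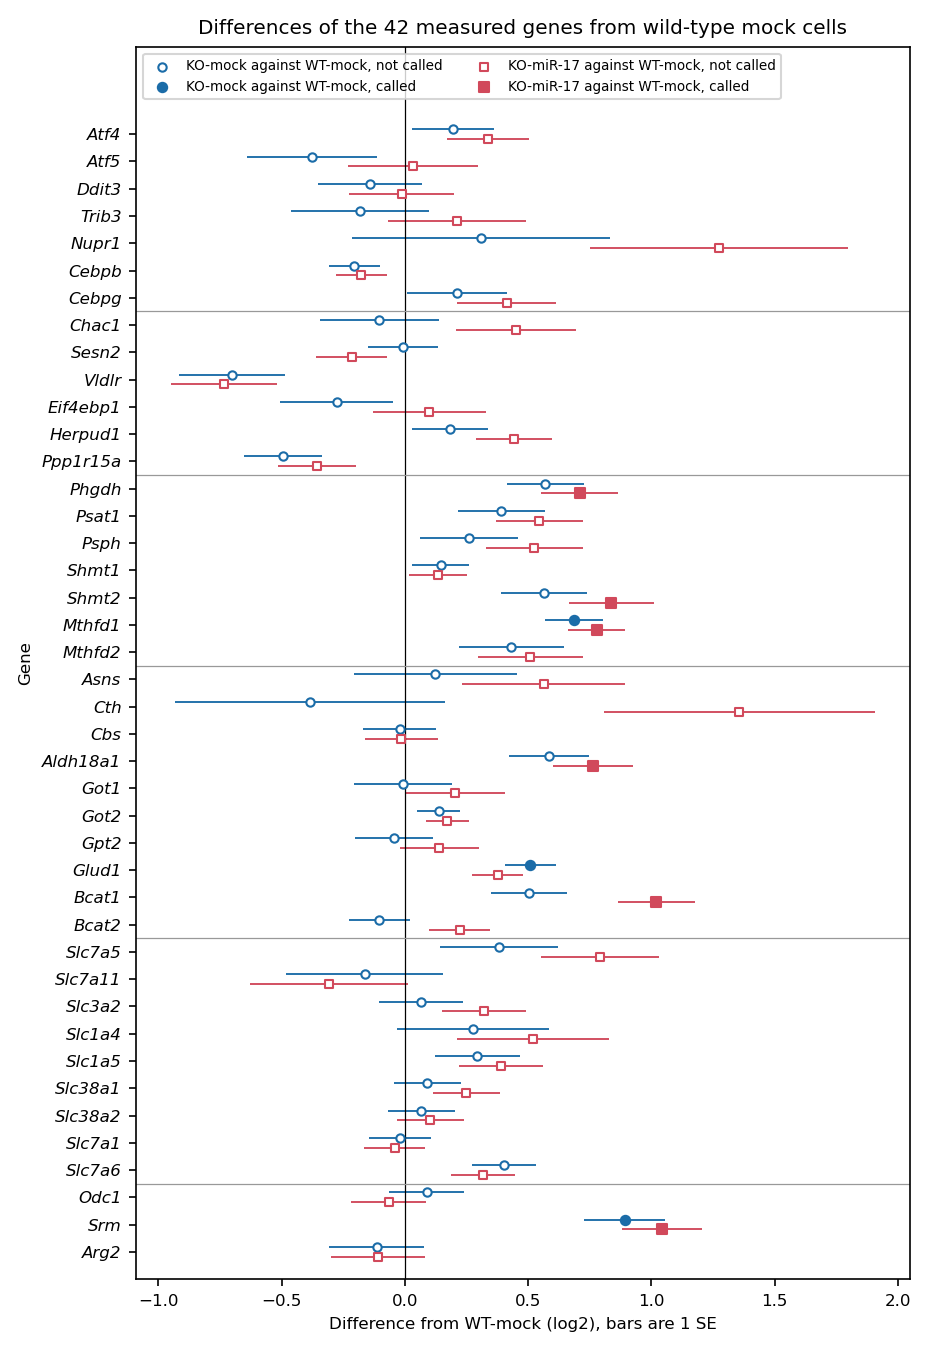
For each of the 42 genes, the log2 difference from WT-mock (horizontal axis) of KO-mock (blue circles) and KO-miR-17 (red squares), with bars of 1 SE from limma; filled symbols passed at an adjusted p under 0.05. Mthfd1, Glud1 and Srm are filled for KO-mock, and Phgdh, Shmt2, Mthfd1, Aldh18a1, Bcat1 and Srm for KO-miR-17.

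The calls leaned on single arrays, over all genes as among the members. With 1 array of the groups compared left out, KO-mock minus WT-mock ranged from 0.56 to 0.81 for Mthfd1. It ranged from 0.40 to 0.62 for Glud1 and from 0.71 to 1.07 for Srm. KO-miR-17 minus WT-mock ranged from 0.52 to 0.90 for Phgdh, 0.58 to 1.09 for Shmt2 and 0.71 to 0.84 for Mthfd1. There Aldh18a1 ranged from 0.58 to 0.95, Bcat1 from 0.84 to 1.20 and Srm from 0.86 to 1.23. In such fits the lone array of a group is assumed to vary like the other groups. The signs of the called differences held in all of them. Phgdh, Shmt2 and Aldh18a1 rested on probe sets that can match related transcripts: without such sets Phgdh had no value and Shmt2 and Aldh18a1 did not pass. With the mean of a gene's probe sets, these 3 and Bcat1 did not pass between KO-miR-17 and WT-mock, nor Glud1 between KO-mock and WT-mock, while Shmt1 passed in both comparisons. Without limma's variance trend, the same 3 and Glud1 did not pass.

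Among other genes of the pathway, 92 were measured and 7 passed between KO-mock and WT-mock, which is close to the 6.54% of all genes. Of the 7, 2 were higher and 5 lower, where 3.74% of all genes passed higher and 2.79% lower. The aminoacyl-tRNA synthetases, which charge tRNAs with amino acids and include ATF4 targets, had 18 measured genes with a median of 0.38. Under both numbers 15 read higher, beside 32.7% of all genes. Of the 18, Aars, the alanine enzyme, passed, reading 8.69 and 8.92 in WT-mock, 9.26 and 9.67 in KO-mock, and 9.52 and 9.73 in KO-miR-17. It rose by 0.66 in KO-mock (SE 0.15, limma adjusted p = 0.048) and 0.82 in KO-miR-17 (adjusted p = 0.0256). Gcsh, the lipoyl-carrying protein of glycine cleavage, rose by 0.66 in KO-mock (SE 0.12, limma adjusted p = 0.0227). In KO-miR-17 against WT-mock, 3 of the 92 passed higher, namely Aars, Tars, the threonine enzyme, and Gcsh, beside 4.03% of all genes.

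Of the pathway genes that fell, Nfil3, a basic leucine zipper factor, decreased by 1.59 in KO-mock (SE 0.13, limma adjusted p = 0.0018), and Txnip, an inhibitor of thioredoxin, fell by 1.15 (adjusted p = 0.00509). Smox, which oxidises spermine back to spermidine, fell by 1.19 (SE 0.21, limma adjusted p = 0.0224) while Srm rose. Of 12 other unfolded protein response genes, the sensor Atf6 fell by 0.67 (SE 0.14, limma adjusted p = 0.0368) and the factor Xbp1 fell by 0.41 (adjusted p = 0.0493). In KO-miR-17 against WT-mock, Nfil3, Txnip, Smox and Edem1, an endoplasmic reticulum degradation factor, passed lower, beside 2.77% of all genes. None of the 12 eIF2 kinase and initiation genes, 9 glutamine and glutathione genes or 10 other amino acid transporters passed in any comparison. None of the 92 passed between KO-miR-17 and KO-mock.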

How the data were processed

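The authors deposited 1 log2 value per probe set and array; per the submitters' processing notes it came from RMA, version not given. The log base was taken from RMA convention and the range of values. Of 22690 probe sets, 64 were controls, and 20380 had 1 gene symbol in the platform annotation, 691 several and 1555 none here. The brightest single-symbol set stood for each of 12393 genes. Of the 42 genes, 26 had several sets, and in 4 (Shmt1, Shmt2, Gpt2 and Vldlr) another set differed from the set used by 0.5 or more in some comparison; Phgdh, Shmt2, Aldh18a1, Vldlr and Cbs rested on sets that can match related transcripts.

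All 6 arrays were fitted with limma 3.58.1 in R 4.3.3 (lmFit, contrasts.fit and eBayes with trend, 3 residual and 4.69 prior degrees of freedom), without a replicate block. P-values were adjusted over all genes by Benjamini-Hochberg and called under 0.05. With 2 arrays a group, an exact permutation test cannot go below 0.333, and p-values measure the spread between these samples. The fit was tested on simulated data for KO-mock against WT-mock: of 12393 genes, 97% of changes of 1 log2 unit were called, and 7.34% of calls were false. Simulated arrays varied independently, while real arrays of the same number deviated together, so these rates may not hold for the real fit. Alternatives were the replicate block, each array left out, other probe set rules, dim genes left out, median centring, no trend and fitting only the groups compared.

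The members and lists were chosen with earlier results of these data known. Members called in any comparison and the 3 of each role group with the smallest unadjusted p were to be given on all arrays. Cth, Chac1, Asns, Trib3 and Psat1 are also so given or were singled out, and the motif and the 0.25 limit were set, after values were seen. Figures were drawn with matplotlib 3.10.9.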

Additional observations from a re-analysis of the deposited data

How the results depend on the processing

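Same-numbered arrays deviated together: across genes, array 1 minus array 2 correlated between groups at 0.429, 0.506 and 0.634. The labels state no pairing, so the numbers were not taken as pairs. With the replicate number as a block, limma called 16 of the 42 genes between KO-mock and WT-mock (12 higher, 4 lower), 2 between KO-miR-17 and KO-mock (Cth and Nupr1, higher) and 23 between KO-miR-17 and WT-mock (21 higher, 2 lower). The regulators Atf4, Cebpg and Nupr1 and the transporters Slc1a4, Slc1a5, Slc3a2, Slc7a5 and Slc7a6 were among the 23. Atf4, Slc7a5 and Slc7a6 were also among the 16. Over all genes the block gave 2723, 38 and 2983 calls, against 810, 0 and 843 without it. Between KO-miR-17 and WT-mock, 3 members passed with the mean of a gene's probe sets, 3 without sets that can match related transcripts and 3 without the trend, against 6; without the trend 508 genes passed. Other settings left the counts of members called within 1.5 times. Leaving out 1 array of the groups compared gave fewer calls, among the members and over all genes. No called member kept its call in every such fit. The median member difference then ranged from 0.044 to 0.23 between KO-mock and WT-mock. Between KO-miR-17 and WT-mock it ranged from 0.17 to 0.49. Between KO-miR-17 and KO-mock the differences of Arg2 and Atf4 turned to -0.0015 and -0.027 with the mean of probe sets, and that of Arg2 to -0.013 with centred arrays. The mean of probe sets also turned Got2 to -0.043 and Sesn2 to 0.016 there, and these 4 were the only members it turned. Where leaving out 1 array turned a sign, none of the differences had passed in the comparison concerned, and the cause was not tested. The ranges below cover only the members chosen by rule or singled out. Sign changes of the other members are not listed. For KO-mock against WT-mock the ranges were Arg2 -0.33 to 0.11, Asns -0.32 to 0.56, Cebpg -0.048 to 0.47, Chac1 -0.32 to 0.11, Cth -0.99 to 0.22, Nupr1 -0.31 to 0.92, Odc1 -0.080 to 0.26 and Trib3 -0.57 to 0.21. For KO-miR-17 against KO-mock they were Arg2 -0.22 to 0.23, Atf4 -0.046 to 0.33, Cebpg -0.015 to 0.42, Mthfd1 -0.029 to 0.21, Phgdh -0.033 to 0.31, Ppp1r15a -0.034 to 0.31, Psat1 -0.014 to 0.32, Slc1a5 -0.12 to 0.31, Slc7a6 -0.23 to 0.056, Srm -0.034 to 0.34 and Vldlr -0.27 to 0.21. For KO-miR-17 against WT-mock they were Arg2 -0.29 to 0.075, Odc1 -0.23 to 0.10 and Trib3 -0.18 to 0.60. Readings near the arrays' lower quartile, as for Arg2 and Slc7a1, limit what can be seen of those genes.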
